A study of Mus musculus with 4 samples.

Results

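Adipocyte regulators and markers were followed in mBMSCs, the study's adherent stromal cultures of mouse bone marrow, with and without depletion of ZBP1. Macrophage markers were also at high level in these cultures, as given below. The set held 10 of the 24346 genes in the table. It was chosen by name, but with earlier results of these data known. It comprised the transcription factors Cebpb, Cebpd, Cebpa and Pparg, the lipid-handling genes Lpl, Cd36 and Fabp4, and the mature adipocyte genes Adipoq, Plin1 and Cfd. RNA-seq was performed on 4 samples of cells from C57BL/6 mice at 3 months of age, cultured in DMEM with serum. The siScr group (n = 2) was transfected with a scramble control siRNA and the siZBP1 group (n = 2) with siRNA against ZBP1, and no genetic change was carried by either group. No adipogenic induction medium is named for these samples. The paper reports higher Cd36, Cebpa, Lpl and Pparg by quantitative PCR in ZBP1-depleted cells under adipogenic induction. It also reports more lipid droplets in such cells. With ZBP1 overexpression it reports fewer lipid droplets and lower adipogenic genes. Those are other conditions, times and measures than the RNA-seq here. The labels do not say whether replicates were separate cultures or animals, so p-values measure only the spread between these samples, which may be technical.

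Adipogenesis runs as a cascade of transcription factors. C/EBPβ and C/EBPδ, encoded by Cebpb and Cebpd, appear early and turn on Pparg and Cebpa, whose products PPARγ and C/EBPα then maintain each other and switch on genes of lipid uptake, storage and hormone secretion. Bone marrow stroma can give rise to marrow adipocytes as well as osteoblasts, and stromal cells of the marrow already carry some of these factors before any lipid is stored. Several of these genes are also expressed in macrophages, in which Cd36 is a scavenger receptor, Lpl a secreted lipase and Fabp4 a lipid chaperone. In bulk RNA, fewer cells of a type and less RNA per cell cannot be told apart.

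The promoter sequences are shown for the link between the first and the second step of the cascade, because members of these steps moved in opposite directions below. RefSeq promoter windows (GRCm38.p6, 250 bases before to 50 after a start site) were matched for 7 of the 10 genes, in 9 windows. No window was available for Lpl, Fabp4 and Cebpd, which were therefore not searched. The letters TTGCNNAA, a core that C/EBP proteins can bind, were searched on both strands. They were found in 3547 of 32851 promoter windows (10.8%) and in 2 of the 9 windows of the set, that of the downstream Pparg start and that of Plin1. Capitals mark the match. Distances are from the RefSeq start of each window. For Plin1 that start is at 79732776, while the annotated gene, on the minus strand, begins at 79732903. The second Plin1 match therefore lies inside the annotated gene. Sequences are read on the strand of the gene, so the second Pparg match shows the letters of the other strand reversed.
Pparg, chr6:115421842-115421867, plus strand, 215 bases upstream of the start: taccaagtcTTGCCAAAgcagcagac
Pparg, chr6:115422041-115422066, plus strand, 16 bases upstream of the start: caaccaatcTTTTGCAAgacatagac
Plin1, chr7:79732947-79732972, minus strand, 187 bases upstream of the start: acctctttaTTGCCTAAacatccccc
Plin1, chr7:79732818-79732843, minus strand, 58 bases upstream of the start: tgagaggcaTTGCCCAAgattccctg
The full palindrome TTGCGCAA, which also fits TTGCNNAA, was in 0.183% of all windows, and the consensus PPAR response element, the direct repeat bound by PPARγ with its partner RXR, was in 0.0396%. Neither was in any of the 9 windows, but at shares this low a match in so few windows was unlikely beforehand. A match describes the letters alone, and binding was not measured.

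Zbp1 itself was at 86.0 and 62.0 FPKM (sequenced fragments scaled to gene length and to library size) in the siScr replicates and at 11.5 and 11.6 in the siZBP1 replicates. The depletion was therefore seen in both siZBP1 samples. Gene values differed between replicates by a median of 0.092 (siScr) and 0.072 (siZBP1) on the log2 scale, and between samples of different groups by 0.175 to 0.208.

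The set was split between genes at high level and genes near or at 0. By mean FPKM over the 4 samples, a scale that allows for gene length, Lpl was higher than 98.5% of the genes detected, Fabp4 than 96.0%, Cd36 than 92.7%, Cebpa than 92.4%, Cebpb than 89.0%, Pparg than 74.4% and Cebpd than 64.7%. Adipoq was higher than 15.9%, and Plin1 and Cfd were listed at 0 in all 4 samples. The siScr order of levels was Lpl, Fabp4, Cd36, Cebpa, Cebpb, Pparg, Cebpd and Adipoq, and no neighbours in it had overlapping replicate values. In siZBP1 cells, Cd36 came after Cebpa and Cebpb, and its replicate values overlapped those of Cebpb. Transcripts of the lipid-handling genes and of the regulators were thus present in these samples. The adipocyte hormone, lipid droplet coat and secreted protease genes were at or near 0 in the same samples. Which cells of the cultures held the abundant transcripts was not tested.

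**Figure D1:**
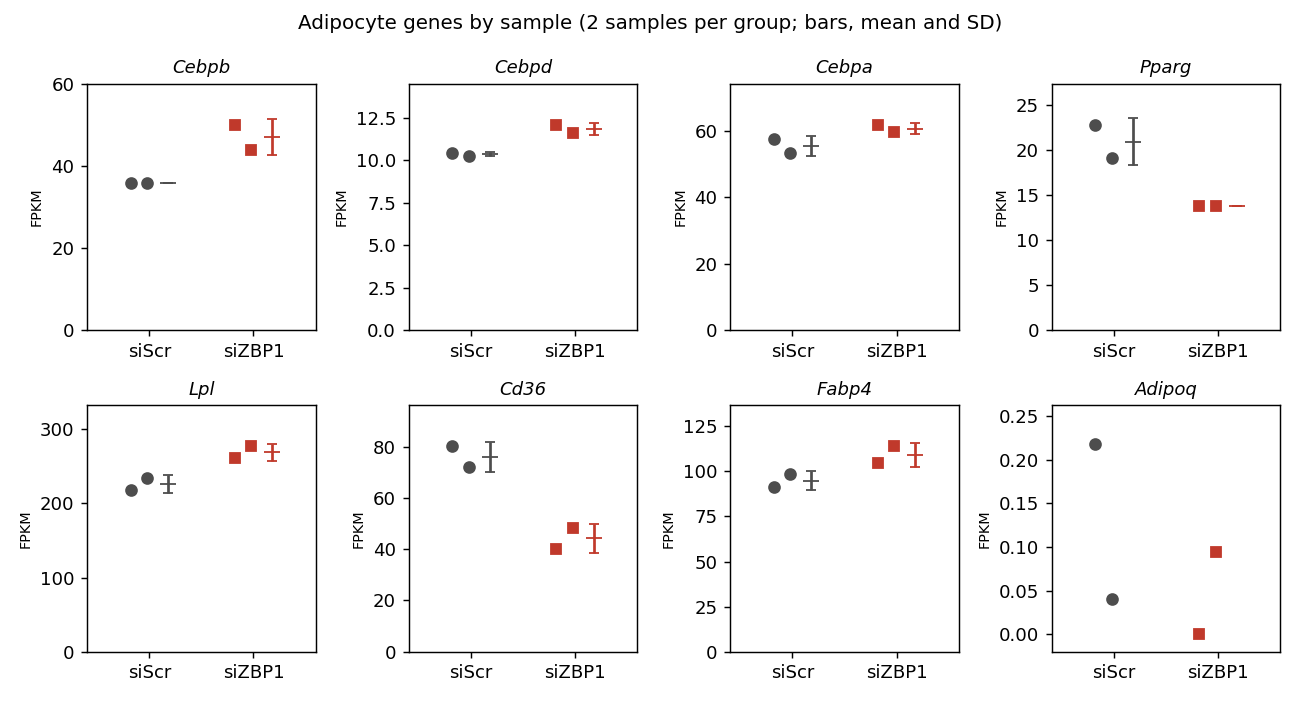
FPKM (vertical axes, linear) of the 8 genes of the set with a value above 0, for each siScr (circles) and siZBP1 (squares) sample, with the mean and SD of the 2 samples drawn beside them except for Adipoq. Pparg and Cd36 are lower in both siZBP1 samples, and Cebpb and Lpl are higher in both.

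In total, 7 of the 10 genes had a mean of at least 1 FPKM and were tested with limma on log2(FPKM + 1), together with 11959 genes over which p-values were adjusted. Of these 7, 2 were lower in siZBP1 cells (Pparg and Cd36), 2 were higher (Cebpb and Lpl) and 3 did not pass (Cebpd, Cebpa and Fabp4). Of all genes tested, 14.8% were lower and 13.5% were higher, 28.3% in all. By the ratio of means, Pparg, Cd36 and Adipoq were over 1.5-fold lower and none of the set was over 1.5-fold higher, against 13.8% lower and 10.7% higher among all genes with a ratio. The ratio of Adipoq rests on overlapping values near 0. The median log2 fold change was 0.18 over the 7 genes and 0.0045 over all genes tested. The siScr and siZBP1 values did not overlap for any of the 7, with 2 lower and 5 higher. This held for 68.4% of all genes tested, 33.7% lower and 34.7% higher, and a lack of overlap with 2 samples per group is therefore the usual case.

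Cebpb, which encodes an early activator of the cascade, was at 35.9 and 36.0 FPKM in the siScr replicates and at 50.2 and 44.0 in the siZBP1 replicates. Both siZBP1 samples lay above both siScr samples, and the replicates were much further apart in the siZBP1 group. The mean rose 1.31-fold, from 35.9 ± 0.0216 to 47.1 ± 4.36 FPKM (SD, n = 2 each), a log2 fold change of 0.38 (SE 0.073, limma adjusted p = 0.0250). Leaving out siScr replicate 1 or 2, or siZBP1 replicate 1 or 2, gave limma adjusted p-values of 0.0996, 0.0807, 0.113 and 0.0648 at log2 fold changes of 0.28 to 0.47. Cebpb lies at chr2:167688915-167690418 (GRCm38, plus strand), where its exons overlap those of Tmem189 on the other strand. Tmem189 was at 56.1 ± 0.374 and 57.0 ± 1.91 FPKM (SD, n = 2 each), and whether strand was used in counting is not stated.

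Cebpd, encoding the other early factor, was at 10.4 and 10.3 FPKM in siScr and at 12.1 and 11.6 in siZBP1 samples. Both siZBP1 values were the higher ones, but the difference did not pass the test, with a log2 fold change of 0.18 (95% interval 0.02 to 0.34, limma adjusted p = 0.0925). It lies at chr16:15887286-15891031 (plus strand) and overlaps exons of Spidr on the other strand, a gene at 6.72 ± 1.30 and 7.06 ± 0.401 FPKM (SD, n = 2 each).

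Pparg encodes the nuclear receptor that adipocyte formation requires. Its level was 22.8 and 19.0 FPKM in the siScr replicates and 13.7 in each siZBP1 replicate. Every siZBP1 value was below the lower siScr value, and here the spread was larger in the siScr group. The siScr mean of 20.9 ± 2.65 FPKM fell to 13.7 ± 0.0293 (SD, n = 2 each), a 1.52-fold lower level and a log2 fold change of -0.57 (SE 0.095, limma adjusted p = 0.0181). The limma adjusted p was 0.0393 and 0.0155 without siScr replicate 1 or 2, and 0.129 and 0.112 without siZBP1 replicate 1 or 2, with log2 fold changes from -0.69 to -0.44. The gene spans chr6:115360951-115490399 (plus strand) with 7 annotated transcripts, 5 of them coding, and 1 value per gene cannot separate the product of the downstream start shown above from the others.

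Cebpa, the partner of Pparg in the later step, was at 57.5 and 53.2 FPKM in siScr and at 61.8 and 59.5 in siZBP1 samples. Both siZBP1 values were the higher ones, but the nearest values of the groups were closer together than the siScr replicates. The difference was 0.13 on the log2 scale and missed the threshold (95% interval -0.02 to 0.28, limma adjusted p = 0.150). Pparg and Cebpa, which stand at the same step, therefore had intervals of the difference that did not overlap, at -0.82 to -0.32 and -0.02 to 0.28, though the difference between the genes was not itself tested. Cebpa lies at chr7:35119293-35121928 (plus strand), with Gm45091 annotated across its exons on the other strand.

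Lpl encodes lipoprotein lipase, the secreted enzyme that frees fatty acids from circulating triglyceride. It was at 218 and 234 FPKM in the siScr replicates and at 261 and 277 in the siZBP1 replicates. Both siZBP1 samples were higher, and the replicates of the 2 groups were about equally far apart. The mean rose 1.19-fold, from 226 ± 11.7 to 269 ± 11.3 FPKM (SD, 2 samples each), at a log2 fold change of 0.25 (SE 0.057, limma adjusted p = 0.0373). This was the weakest call of the set, with limma adjusted p-values of 0.0565 with no filter on low genes and 0.0753 with no variance trend. It passed without siScr replicate 2 (0.0407) but not without siScr replicate 1 (0.101), siZBP1 replicate 1 (0.144) or siZBP1 replicate 2 (0.196). Lpl lies on chromosome 8, at 68880491 to 68907448 (plus strand).

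Cd36 encodes a surface transporter of long-chain fatty acids and oxidized lipoproteins. It was at 80.1 and 71.9 FPKM in siScr and at 40.3 and 48.1 in siZBP1 samples. The gap between the groups was wider than either pair of replicates. The siScr mean of 76.0 ± 5.79 FPKM fell to 44.2 ± 5.57 (SD, n = 2 each), a 1.72-fold lower level, with a log2 fold change of -0.77 (SE 0.10, limma adjusted p = 0.0110). Without siScr replicate 2 the limma adjusted p was 0.0321, and without siScr replicate 1, siZBP1 replicate 1 or siZBP1 replicate 2 it was 0.0605, 0.0811 and 0.0572, at log2 fold changes of -0.90 to -0.65. The gene spans chr5:17781690-17888801 (minus strand).

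Fabp4, the lipid chaperone of adipocytes and macrophages at chr3:10204088-10208576 (minus strand), was at 91.2 and 98.5 FPKM in siScr and at 105 and 114 in siZBP1 samples. The siZBP1 values were the higher ones, by 0.20 on the log2 scale, which missed the threshold (95% interval 0.03 to 0.37, limma adjusted p = 0.0834). With the replicate number as a block it passed (adjusted p = 0.0397), although the numbers do not show that samples were paired. Among the lipid-handling genes Cd36 was lower, while Lpl and Fabp4 were both higher in both siZBP1 samples. Lpl was called and Fabp4 was not, but their intervals were much alike, at 0.10 to 0.40 and 0.03 to 0.37.

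**Figure D2:**
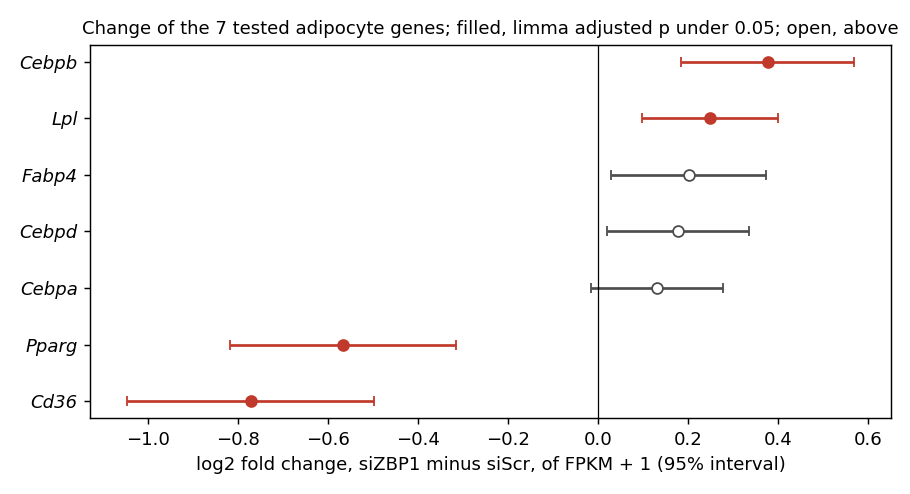
Log2 fold change of FPKM + 1 (siZBP1 minus siScr, horizontal axis) with its 95% interval for the 7 tested genes of the set, filled where the limma adjusted p is under 0.05. Pparg and Cd36 lie below 0, and Cebpb and Lpl above it.

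Adipoq, which encodes the adipocyte hormone adiponectin (chr16:23146536-23158028, plus strand), was at 0.219 and 0.0406 FPKM in siScr and at 0 and 0.0943 in siZBP1 samples. The groups overlapped and no test was made. The lowest values of the table lie on a grid, and on it the 4 Adipoq values stood at 4, 1, 0 and 2 whole steps, all within 0.0204 of a whole step, at relative depths of 1.4 and 1.87 for siScr and 1.0 and 1.61 for siZBP1 samples. Each step may be a single fragment, so a difference was not detectable at this depth. Plin1, the main coat protein of the large lipid droplet (chr7:79720218-79732903, minus strand), and Cfd, the secreted protease adipsin (chr10:79890853-79892655, plus strand), were listed at 0 throughout, and Plin1 was so while its promoter window, like that of Pparg, holds TTGCNNAA.

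The families to which these genes belong were uneven in level. Among the 7 C/EBP family genes, 6 were tested, Cebpb was higher and Ddit3 was lower, 16.7% each way. Those shares were near the 14.8% lower and 13.5% higher of all genes tested. The PPAR and RXR, perilipin and fatty acid binding protein families had 4, 3 and 4 genes tested, too few to set against these shares. Ddit3, which encodes the stress-induced C/EBP inhibitor CHOP, was at 77.7 and 61.4 FPKM in siScr and at 34.0 and 33.2 in siZBP1 samples. The siScr mean of 69.5 ± 11.6 FPKM fell to 33.6 ± 0.571 (SD, n = 2 each), at a log2 fold change of -1.02 (limma adjusted p = 0.00852). Cebpg had means of 20.7 and 18.4 FPKM and Cebpz of 12.7 and 11.3, with limma adjusted p-values of 0.0695 and 0.153, and Cebpe was at 0.0152 and 0.0175.

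Of the 6 PPAR and RXR genes, 4 were tested. Ppard, which encodes the widely expressed PPARδ, was at 13.7 and 13.9 FPKM in siScr and at 19.2 and 17.8 in siZBP1 samples, so that both siZBP1 samples were higher while those of Pparg were lower. Its log2 fold change was 0.40 (SE 0.062, limma adjusted p = 0.0152). In siScr cells Pparg was above Ppard, and in siZBP1 cells it was below it, with no overlap of replicates in either group. The partner receptors Rxra (means of 20.2 and 21.9 FPKM) and Rxrb (15.7 and 18.5) did not pass the test, with limma adjusted p-values of 0.265 and 0.130. Ppara was at 0.0832 and 0.105 FPKM and Rxrg at 0.0399 and 0.0411.

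Perilipins coat lipid droplets, Plin1 and Plin4 mostly in adipocytes and Plin2 and Plin3 in most cells. Plin4 was at 2.49 and 2.11 FPKM in siScr and at 0.180 and 0.132 in siZBP1 samples. Both siZBP1 values were far below the siScr values. The log2 fold change was -1.51 on the FPKM + 1 scale, which understates the change of a gene this low (limma adjusted p = 0.00543). Plin4 reached the filter of 1 FPKM only through its siScr values, and its siZBP1 mean was 0.156. It fell below the filter when either siScr sample was left out. Plin2 rose from 175 ± 13.7 to 209 ± 3.35 FPKM and Plin3 from 36.8 ± 0.593 to 47.2 ± 0.712 FPKM (SD, 2 samples each), at limma adjusted p-values of 0.0469 and 0.00916. The call of Plin2 was lost with a filter at 0.1 FPKM (limma adjusted p = 0.0524), no filter (0.0692) and no variance trend (0.0885), and without siScr replicate 2 (0.0572), siZBP1 replicate 1 (0.233) or siZBP1 replicate 2 (0.180). Plin5 was at 0.0365 and 0.107 FPKM.

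Among the 9 fatty acid binding proteins, Fabp5 was the most abundant and Fabp4 came next. Fabp5, the epidermal form that macrophages also use, was at 521 and 576 FPKM in siScr and at 814 and 773 in siZBP1 samples, and both siZBP1 samples were higher (log2 fold change 0.53, limma adjusted p = 0.00955). Fabp3, the heart and muscle form, was at 23.5 and 23.0 FPKM in siScr and at 11.4 and 11.2 in siZBP1 samples. It fell by 0.98 on the log2 scale (limma adjusted p = 0.00262). Fabp7 rose from 1.63 to 3.11 FPKM (limma adjusted p = 0.0160), Fabp2 was at 0.0833 and 0, and Fabp1, Fabp6, Fabp9 and Fabp12 were listed at 0.

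**Figure D3:**
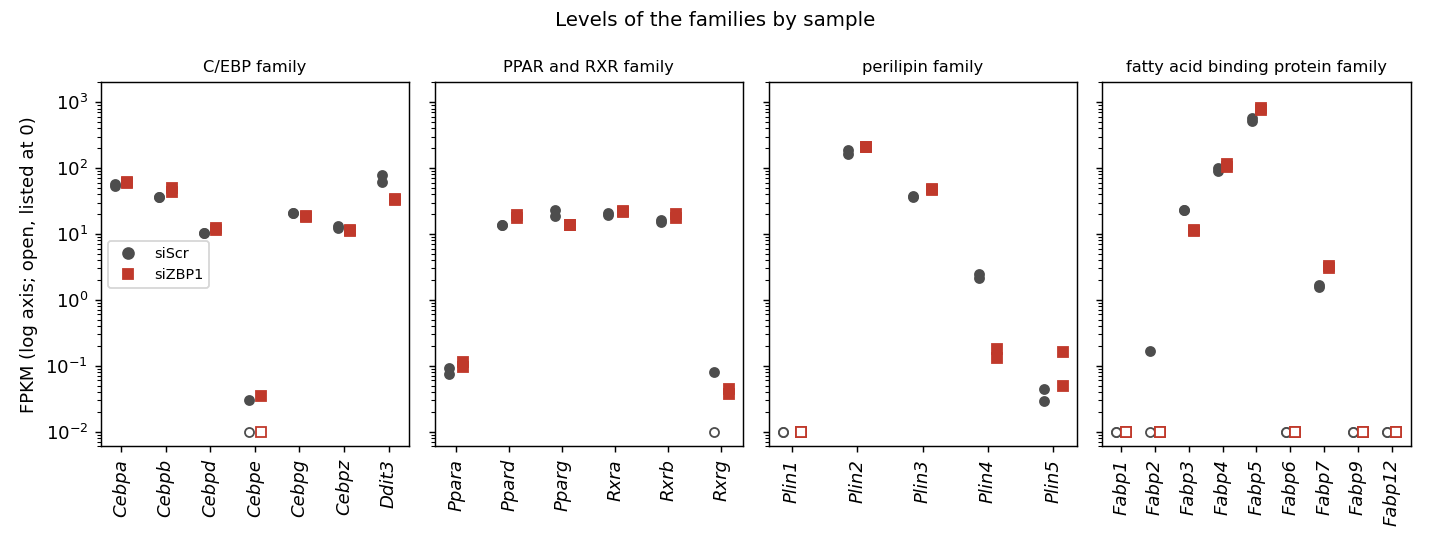
FPKM (log axis) of the C/EBP, PPAR and RXR, perilipin and fatty acid binding protein genes in each siScr (circles) and siZBP1 (squares) sample, with open symbols at the bottom for values listed at 0. Plin4, Ddit3 and Fabp3 are lower in both siZBP1 samples, and Ppard and Fabp5 are higher.

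Other regulators of adipogenesis were taken as lists. The lists here and below, like the families above, were chosen with earlier results of these data known. Their counts beside the shares of all genes are a description only. Of 20 factors that promote adipogenesis, 6 had a mean under 1 FPKM and 14 were tested. The median log2 fold change of the 14 was 0.0087. With a filter at 0.1 FPKM or no filter, it was -0.0924 over all 20. Of the 14, 3 were lower and 1, Ppard, was higher, where all genes tested gave 14.8% lower and 13.5% higher. These shares were near those of all genes. Klf4, which acts upstream of Cebpb, was at 15.5 and 12.5 FPKM in siScr and at 5.64 and 4.75 in siZBP1 samples (log2 fold change -1.27, limma adjusted p = 0.00679). Its fall went with a rise of Cebpb in the same samples. Ebf1, which acts upstream of Pparg and Cebpa, fell from 6.75 ± 0.0583 to 4.13 ± 0.265 FPKM (SD, n = 2 each, limma adjusted p = 0.0113), and Klf9 had a log2 fold change of -0.30 (limma adjusted p = 0.0381). The lower count was 1 without siScr replicate 1, and the higher count was 2 with quantile normalization or robust moderation.

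Of 16 factors that restrain adipogenesis, 13 were tested by limma, 5 were lower and 0 were higher. Of all genes tested, 14.8% were lower and 13.5% higher. The median log2 fold change was -0.28, and 8 of the 13 did not pass. Wnt10b, a Wnt ligand that blocks Pparg and Cebpa induction, was at 7.61 and 5.06 FPKM in siScr and at 1.47 and 1.43 in siZBP1 samples. Its log2 fold change was -1.56 (limma adjusted p = 0.00917), and the siZBP1 values lay far below both siScr values. Hes1, a Notch target, fell from 13.7 ± 1.22 to 7.89 ± 0.996 FPKM (SD, n = 2 each, limma adjusted p = 0.0143). The other 2 lower genes beside Ddit3 were Klf2 and Tsc22d3, at log2 fold changes of -0.69 and -0.40.

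Of 27 other mature adipocyte genes, 6 were listed at 0 in all samples (Lep, Retn, Cidec, Cidea, Thrsp and Adig) and 7 had a mean under 1 FPKM. Of the 14 tested, 8 were lower and 1 was higher, beside 14.8% lower and 13.5% higher of all genes, and the median log2 fold change was -0.24. Ptrf, now named Cavin1, a caveola protein of many mesenchymal cells, was at 46.0 and 36.3 FPKM in siScr and at 16.9 and 17.1 in siZBP1 samples (log2 fold change -1.22, limma adjusted p = 0.00606). G0s2, an inhibitor of triglyceride lipase, and Dgat2, an enzyme of triglyceride synthesis, had log2 fold changes of -0.84 and -0.79 (limma adjusted p = 0.0405 and 0.0321). Both reached the filter of 1 FPKM only through siScr, with siScr means of 1.89 and 2.31 FPKM and siZBP1 means of 0.610 and 0.893. By the ratio of means G0s2 was 3.09-fold and Dgat2 2.58-fold lower, which the FPKM + 1 scale understates. The call of G0s2 was lost with no filter (limma adjusted p = 0.0504), the replicate block (0.0512), quantile normalization (0.0589) and each sample left out that could be run (0.0505 to 0.178). The other lower genes, Mgll, Acsl1, Cav1, Fasn and Scd1, act in lipid metabolism or caveolae of many cell types. Lpin1, a phosphatidate phosphatase of triglyceride synthesis, rose from 5.84 ± 0.331 to 9.28 ± 0.297 FPKM (SD, n = 2 each, limma adjusted p = 0.0101). The lower count was 5 with no filter, no variance trend or quantile normalization, and 2 and 4 without siScr replicate 1 or 2.

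Of 14 genes of fatty acid uptake and partners of lipoprotein lipase, 11 were tested, 3 were lower and 3 were higher, with a median log2 fold change of 0.0247, against 14.8% lower and 13.5% higher of all genes. Sdc1, a heparan sulfate proteoglycan that binds lipoproteins, was at 61.4 and 56.6 FPKM in siScr and at 32.6 and 31.5 in siZBP1 samples (log2 fold change -0.86, limma adjusted p = 0.00338). Angptl4, an inhibitor of lipoprotein lipase and a known PPAR target, rose from 7.48 ± 0.215 to 9.47 ± 0.510 FPKM (SD, n = 2 each, limma adjusted p = 0.0410), alongside Lpl. Fabp3 was also among the lower genes, and Fabp5 and Acsl4 were the other higher ones. Without siScr replicate 1 the higher count was 1.

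Marrow stromal cells of the adipocyte lineage are known for high Cxcl12, Kitl and Foxc1. Of 12 genes listed for such cells, 2 were under 1 FPKM, among them Lepr (mean of 0.780 over all samples). The other 10 were tested by limma, 4 were lower and 0 were higher. The median log2 fold change was -0.52, and the 6 that were not called ranged from -0.98 (Hp) to 0.066 (Chrdl1). The shares of all genes were 14.8% lower and 13.5% higher. Cxcl12, the chemokine that holds blood stem cells in the marrow, was at 68.4 and 54.6 FPKM in siScr and at 8.06 and 7.71 in siZBP1 samples (log2 fold change -2.81, limma adjusted p = 0.00210). Foxc1 fell from 8.16 ± 0.235 to 4.75 ± 0.0683 FPKM (SD, n = 2 each, limma adjusted p = 0.00717), and Il7 and Kitl had log2 fold changes of -0.54 and -0.49. The lower count was 7 with robust moderation and 3 with no filter, with the replicate block or without siScr replicate 1. The call of Il7 was lost with no filter (limma adjusted p = 0.0522), quantile normalization (0.0560), the replicate block (0.0580) and each sample left out (0.0690 to 0.150). Without siZBP1 replicate 1 or 2, each count of lower or higher genes in the regulator, adipocyte, uptake, stromal, macrophage and mesenchymal lists was 0 or 1.

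Markers of other cells were also listed. Of 18 macrophage markers, all tested by limma and none at 0, 0 were lower and 11 were higher. The shares of all genes tested were 14.8% lower and 13.5% higher. The median log2 fold change of the markers was 0.29 (range 0.0287 to 1.25). Their summed level was 9798 and 10790 FPKM in siScr and 15510 and 14760 in siZBP1 samples. Without Lyz2, the most abundant of them, it was 6984 and 7143 against 9642 and 9360. Mrc1, the mannose receptor, was at 36.5 and 48.9 FPKM in siScr and at 102 and 103 in siZBP1 samples (log2 fold change 1.25, limma adjusted p = 0.00789). Csf1r, the receptor for macrophage growth factor, was at 467 and 470 FPKM against 584 and 558, and Adgre1, which encodes F4/80, was at 303 and 279 against 313 and 320 and did not pass (limma adjusted p = 0.165). These are levels above those of Pparg in every sample. Of the adipocyte regulators and markers, Cebpb and Lpl were called higher in siZBP1 cells, as were 11 of the macrophage markers. Cebpa, Cebpd and Fabp4 were higher in both siZBP1 samples but did not pass. Pparg and Cd36, which macrophages also express, were called lower. The part of macrophage RNA in any of these results was not tested.

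Of 11 mesenchymal markers, none at 0, 4 were lower and 1 was higher by limma, against 14.8% lower and 13.5% higher of all genes, and the median log2 fold change was -0.35. Their summed level was 7380 and 6446 FPKM in siScr and 5045 and 5106 in siZBP1 samples. Most of this difference was Col1a1, which is also in the osteoblast list, and without it the sums were 4314 and 3926 in siScr and 3917 and 3914 in siZBP1 samples. Col1a1, the main collagen of bone matrix, fell by 1.26 on the log2 scale (limma adjusted p = 0.00480), and Pdgfrb, a receptor of stromal cells, fell by 0.44 (limma adjusted p = 0.0108). Nt5e, which encodes CD73, rose from 4.11 ± 1.94 to 21.0 ± 0.373 FPKM (SD, n = 2 each, limma adjusted p = 0.00954). The lower count was 7 without siScr replicate 2. The part of stromal content in the lower level of Pparg and Cd36 was not tested.

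**Figure D4:**
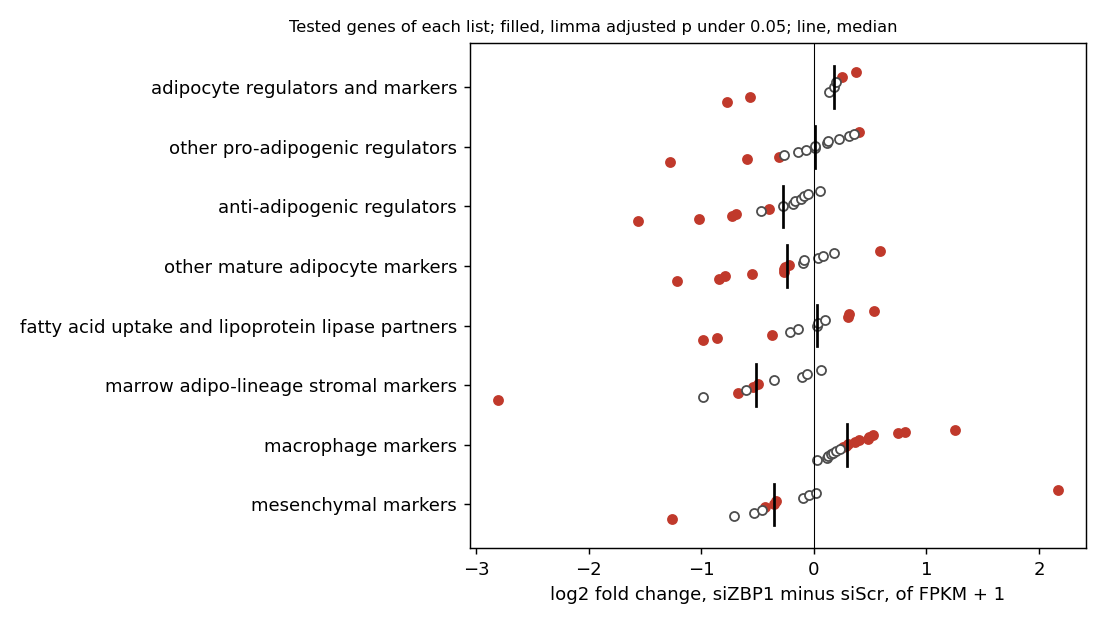
Log2 fold change of FPKM + 1 (siZBP1 minus siScr, horizontal axis) of each tested gene of 8 lists, filled where the limma adjusted p is under 0.05, with a line at each list's median. The medians run from -0.52 for marrow stromal genes of the adipocyte lineage to 0.29 for macrophage markers, and the adipocyte regulators and markers are at 0.18.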

How the data were processed

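RNA-seq of 2 siScr and 2 siZBP1 samples of mBMSCs was analysed, grouped by the sample titles. The authors deposited FPKM per gene, from TopHat alignments to mm10. The methods name HTSeq and the submitters' processing notes Cufflinks. The annotation and strand use are not given in the sources used here, and read numbers are unknown. The deposited group means were not used. Rows that share a symbol (4) were kept as separate genes.

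Genes with a mean of at least 1 FPKM were tested with limma 3.58.1 (R 4.3.3) with a variance trend on log2(FPKM + 1), and p-values were adjusted by Benjamini and Hochberg over 11959 genes with a threshold of 0.05. On the FPKM + 1 scale, log2 fold changes of genes at a few FPKM or less are understated. With 2 samples per group an exact permutation test cannot go below p = 0.333 (two-sided). Scripts were tested on simulated data. The genes and lists were chosen with earlier results of these data known. All genes of the set were named, with up to 3 called genes per list by size of change, every measured family member, and further genes (Klf2, Tsc22d3, Mgll, Acsl1, Cav1, Fasn, Scd1, Csf1r, Adgre1, Kitl, Acsl4 and Angptl4 among them) chosen after their values were seen. A single lower gene of the fatty acid uptake list is not reported here. Alternatives were another pseudocount, filter, scaling and moderation, a replicate block and leaving out each sample. Positions are from GENCODE M21 (GRCm38) and promoters from RefSeq (GRCm38.p6).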

Additional observations from a re-analysis of the deposited data

How the results depend on the processing

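No change of setting turned the direction of a gene run under the alternatives, which were Zbp1, the tested adipocyte genes and up to 3 genes per list, and the median of all genes moved to at most 0.0433 (quantile normalization). With 1 sample left out, the lone sample of a group is assumed to vary like the other group, and counts of calls depended on the siZBP1 samples: the lower genes numbered from 48 to 1467 and the higher genes from 22 to 1248, against 1766 and 1618 with all samples. Among the adipocyte genes 0 to 2 were lower and 0 to 1 higher. Zbp1 ranged from -2.79 to -2.33 on the log2 scale, with limma adjusted p-values of 0.0618 and 0.0510 without siZBP1 replicate 1 or 2. Of the 4 called adipocyte genes, 34 of 36 values passed with all samples and 4 of 16 with 1 left out. The adipocyte genes that were higher numbered 1 with no filter and 1 with no variance trend. Genes over 1.5-fold in the ratio of means numbered 3999, against 1232 with 1 FPKM added and 1538 with a mean of at least 1 FPKM. The replicate numbers do not establish pairs, since the replicate differences of the groups correlated at -0.063 across 11959 genes; with the replicate block 1654 genes were lower and 1465 higher, Fabp4 passed, and G0s2 (adjusted p = 0.0512) and Il7 (0.0580) were lost. With 2 samples per group and unknown read numbers, no counting error could be given, and for genes past no threshold the interval of the difference is the limit.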

Other observations

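Osteoblast genes, the other fate of these cells, were also listed. Of 7, all tested by limma, 6 were lower and 1 was higher, at a median of -1.26 on the log2 scale, against 14.8% lower and 13.5% higher of all genes tested. The study itself reports lower Runx2, Sp7, Ibsp and Bglap by quantitative PCR in ZBP1-depleted cells. It also reports lower Runx2 and Sp7 as FPKM, so those values here are not independent of the paper. Bglap, 1 of the lower genes, reached the filter of 1 FPKM only through siScr (means of 2.16 and 0.664 FPKM). Alpl, the phosphatase of mineralizing cells, was at 243 and 157 FPKM in siScr and at 25.7 and 23.0 in siZBP1 samples (limma adjusted p = 0.00388), and Sp7 and Ibsp had log2 fold changes of -2.68 and -2.21. Spp1, which macrophages also express, was the higher gene, at 1516 and 2625 against 4651 and 4447 FPKM.

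Of 8 neutrophil markers, 4 were listed at 0 (S100a9, Elane, Mpo and Ltf), and the summed level was 0.718, 0.611, 1.19 and 4.68 FPKM in siScr replicates 1 and 2 and siZBP1 replicates 1 and 2. The single gene tested, S100a8, did not pass (log2 fold change 1.11, limma adjusted p = 0.239). It reached the filter only through siZBP1 replicate 2, at 4.52 FPKM. The 6 endothelial markers summed to 5.53, 4.60, 4.88 and 5.53 FPKM in the same order, and Kdr, the single gene tested, did not pass (log2 fold change 0.22, limma adjusted p = 0.176).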
